A study of Rattus norvegicus with 7 samples.

Results

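The receptor for epidermal growth factor (Egfr) and 5 of its ligands, amphiregulin (Areg), epiregulin (Ereg), heparin-binding EGF-like growth factor (Hbegf), transforming growth factor alpha (Tgfa) and betacellulin (Btc), were followed through 72 h of cyclic tensile stress in rat spinal cord cells. The 6 genes were chosen by their signals on the same 7 arrays that are described here, so their values are a description and carry no test. Every probe set that the platform annotation assigns to exactly 1 of these symbols was taken, which gave 9 of the 31042 probe sets of the array. Areg, Ereg, Hbegf and Btc had 1 probe set each, Tgfa had 2 and Egfr had 3. No probe set shared by several symbols held any of the 6 genes. Averaged over the arrays, 7 of the 9 probe sets reached a signal of 100, and these represent all 6 genes.

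The cells came from spinal cords of Sprague-Dawley rat embryos (E15), freed of meninges and dorsal root ganglia, and were grown for 3 days on collagen-coated flexible membranes before loading. The membranes were then stretched by 10% at 0.5 Hz, and RNA was taken at 0 h, that is before loading, and after 2, 6, 12, 24, 48 and 72 h. The RNA from 5 animals was pooled for each time and hybridised to 1 array, so no value has a replicate and the spread between cultures is unknown. The strain is greatest at the edge of the well and least at its centre. Unstretched cells at the later times were not analysed here, so that stretching and time in culture cannot be told apart. The paper reported that cell survival under this strain decreased with time, to a minority at the late times relative to unstrained cultures. Each array was scaled to the same trimmed mean, so its signals do not show how many cells were left.

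EGF-family ligands are made as membrane-spanning precursors and are released when a protease of the ADAM family, mainly ADAM17, cuts them from the cell surface. Areg and Tgfa bind the EGF receptor, whereas Ereg, Hbegf and Btc also bind ErbB4. Ligand binding pairs the receptor with itself or with another ErbB protein and switches on the RAS, ERK and PI3 kinase cascades. In the nervous system the receptor is known from neural progenitors and from reactive astrocytes, and Areg and Ereg are known as genes that many cell types induce when tissue is injured.

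Areg was the ligand with the highest ratio at 6 h, and Egfr was the receptor, lower at 48 and 72 h. Btc is the chromosomal neighbour of Areg, and at 72 h its signal was near that at 0 h. The promoters of these genes are shown for these reasons. Each runs 5′ to 3′ from 250 bases before to 50 bases after the gene's start, in the rat build GRCr8 of RefSeq. Capitals mark matches, on either strand, to any of the motifs searched. The cyclic AMP response element was searched as TGACGTCA. The site of the transcription factor AP-1 was searched as TGANTCA. For the TATA box of core promoters the letters were TATAAA. For the GC box, to which SP1 binds, they were GGGCGG. The site of the TEAD factors, partners of YAP, was searched as GGAATG.
Areg, chr14:17265592-17265891, minus strand: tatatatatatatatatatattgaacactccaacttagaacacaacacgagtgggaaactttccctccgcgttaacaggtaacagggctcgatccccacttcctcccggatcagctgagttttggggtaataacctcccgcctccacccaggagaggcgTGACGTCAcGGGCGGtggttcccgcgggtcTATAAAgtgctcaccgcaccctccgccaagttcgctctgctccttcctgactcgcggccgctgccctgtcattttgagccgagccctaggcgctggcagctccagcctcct
Btc, chr14:16992418-16992717, plus strand: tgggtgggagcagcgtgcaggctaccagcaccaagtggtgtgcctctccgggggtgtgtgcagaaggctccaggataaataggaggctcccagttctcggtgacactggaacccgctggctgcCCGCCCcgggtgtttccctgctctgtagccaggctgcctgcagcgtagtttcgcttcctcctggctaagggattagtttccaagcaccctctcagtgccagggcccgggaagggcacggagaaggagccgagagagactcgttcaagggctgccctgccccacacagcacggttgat
Egfr, chr14:95378376-95378675, plus strand: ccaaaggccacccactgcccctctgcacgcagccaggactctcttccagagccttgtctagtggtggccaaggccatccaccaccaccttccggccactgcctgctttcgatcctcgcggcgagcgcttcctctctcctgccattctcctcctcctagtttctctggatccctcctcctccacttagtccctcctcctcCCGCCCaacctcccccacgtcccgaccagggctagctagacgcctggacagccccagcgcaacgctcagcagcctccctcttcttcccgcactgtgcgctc

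The Areg window held 1 match to TGACGTCA, which began 91 bases before the start, 1 GC box at 82 bases and 1 TATAAA at 61 bases, none of which overlapped. Of the 33469 promoters of the same length, 1.83% held TGACGTCA and 14.2% held TATAAA. The GC box, present in 33.1% of promoters, was the 1 match in the Btc window and also the 1 match in the Egfr window. TGANTCA, in 7.33% of promoters, and GGAATG, in 14.2%, had no match in these 3 windows. A match describes these letters only, and no binding was measured. A window was matched for 5 of the 6 genes by symbol, and Ereg is named only.

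Areg had a high signal at 6 h and again at 72 h. Its signals were 59.8 at 0 h, 145 at 2 h, 1013 at 6 h, 322 at 12 h, 329 at 24 h, 550 at 48 h and 1035 at 72 h. The 6 and 72 h arrays were thus the highest and nearly equal, the 12 and 24 h arrays lay between them and the start, and no later array came back to the 0 h signal. Relative to 0 h the signal was 2.42 times as high at 2 h, 16.9 times at 6 h, 5.39 times at 12 h, 5.51 times at 24 h, 9.20 times at 48 h and 17.3 times at 72 h. The 0 h signal was below 100, near the floor of the method, which limits each of these ratios but not the step between the 6 and 12 h arrays.

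To say which arrays differ, the study's own size threshold was applied, which asks for a change of 2 times or more, up or down, and for 200 or more units of signal. It measures size and tests nothing. Areg passed it as higher than at 0 h at 6, 12, 24, 48 and 72 h, and was the only member to do so at 6, 12 or 24 h, when 0.351%, 0.419% and 0.496% of all probe sets were higher. At 2 h it missed the rule with a difference of 84.9. Between 6 and 12 h Areg became lower, at 0.318 of its 6 h signal, and 0.248% of all probe sets were lower past the threshold in this step. Over all 21 pairs of times, Areg was higher at the later time in 10 and lower in 2. Ordered by signal the arrays ran 0, 2, 12, 24, 48, 6 and 72 h, and no neighbours in this order differed past the threshold.

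The early peak of Areg was shared by few genes. Only 23 probe sets, which carry 15 gene names, were higher at 6 h than at 0 h and then lower at 12 h than at 6 h by the threshold, among them those of Crem, Nr4a1, Nr4a3, Dusp5 and Cxcl2. Of these 23, 5 were also higher again at 72 h than at 12 h, and their named genes were Areg, the chemokine gene Cxcl2 and the nuclear receptor gene Nr4a1. These genes were picked by their pattern after the values were seen.

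Ereg, in contrast, had its main increase after 24 h. Its signals were 28.9 at 0 h, 57.4 at 2 h, 106 at 6 h, 79.6 at 12 h, 88.5 at 24 h, 275 at 48 h and 1092 at 72 h. The 72 h array stood far above the others, the 48 h array came second, and the arrays up to 24 h lay at or below 106. The ratio to 0 h was 3.66 at 6 h, 2.76 at 12 h and 3.07 at 24 h, but with differences of at most 76.8 these signals stayed under the threshold. It was 9.53 at 48 h and 37.9 at 72 h, past the threshold both times. The 0 h signal of 28.9 is close to the floor, and a ratio against it has a weak basis.

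Ereg and Areg were the 2 members that were higher at 48 h and at 72 h, when 1.98% and 2.60% of all probe sets were higher. In the last step Ereg was 3.97 times as high at 72 h as at 48 h and passed the threshold, as did 0.168% of all probe sets, whereas Areg was 1.88 times as high and did not. Of the log2 change that each gene showed at 72 h, on the log2(signal + 32) scale, 99.1% was present at 6 h for Areg and 28.0% for Ereg. Both genes had a higher signal at 6 h than at 2 or 12 h, with the 12 h signal at 0.318 of the 6 h signal for Areg and at 0.754 for Ereg.

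**Figure D1:**
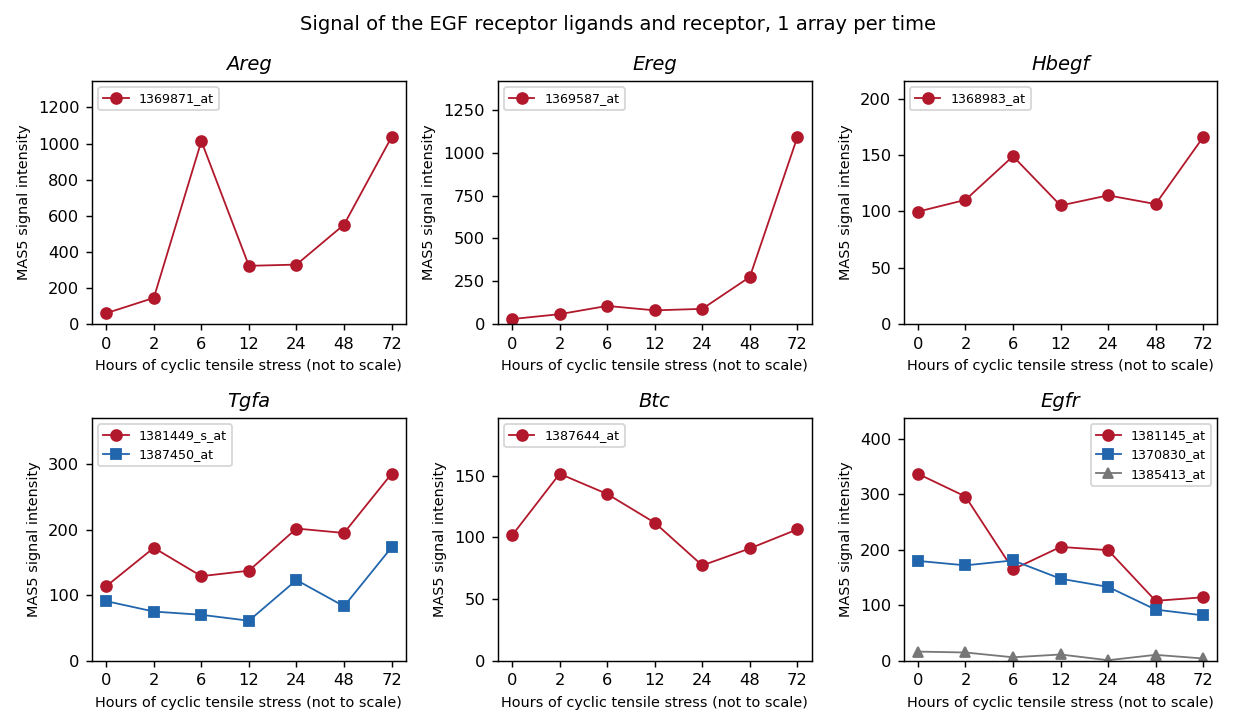
MAS5 signal intensity (vertical axes, linear and from 0, scaled for each gene) against the hours under stress (horizontal axes, evenly spaced), with 1 point per array and 1 line per probe set. Areg stands at 1013 at 6 h and 1035 at 72 h, Ereg at 1092 at 72 h, and the brightest Egfr probe set stands at 108 at 48 h and 114 at 72 h, below its 336 at 0 h.

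Tgfa was moderately higher at the end. Its brighter probe set had signals of 114 at 0 h, 172 at 2 h, 129 at 6 h, 137 at 12 h, 202 at 24 h, 195 at 48 h and 285 at 72 h. The 72 h array was the highest and the 0 h array the lowest, with a ratio of 2.51 and a difference of 171. This was just outside the threshold, whose ratio it met and whose difference it did not. The other probe set had 90.8 at 0 h, 74.9 at 2 h, 70.0 at 6 h, 60.9 at 12 h, 123 at 24 h, 83 at 48 h and 173 at 72 h. Here also 72 h was highest and 24 h second, but 2, 6, 12 and 48 h lay below 0 h. The brighter set is one whose probes may match more than 1 transcript, as its s_at suffix says, and over the 7 arrays the log2 values of both sets had a correlation of 0.79.

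Hbegf, which encodes a heparin-binding ligand that also serves as the receptor of diphtheria toxin in humans, stayed in a narrow range. Its signals were 99.7 at 0 h, 110 at 2 h, 149 at 6 h, 105 at 12 h, 114 at 24 h, 106 at 48 h and 166 at 72 h. The 2 highest arrays were those of 72 and 6 h, the times at which Areg was highest, with ratios to 0 h of 1.66 and 1.49. No pair of times passed the threshold.

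Btc showed no late increase. Its signals were 101 at 0 h, 151 at 2 h, 135 at 6 h, 112 at 12 h, 77.2 at 24 h, 90.9 at 48 h and 106 at 72 h. It was highest at 2 h, lowest at 24 h and, with a ratio of 1.05, back near its 0 h signal at 72 h. In none of the 21 pairs of times did Btc, Hbegf or either probe set of Tgfa pass the threshold, although with signals this low a change of more than 2 times can miss the required difference of 200.

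The receptor was lower on the late arrays. The brightest Egfr probe set had signals of 336 at 0 h, 296 at 2 h, 164 at 6 h, 205 at 12 h, 199 at 24 h, 108 at 48 h and 114 at 72 h. The 48 and 72 h arrays were the lowest and the 0 and 2 h arrays the highest. Its ratio to 0 h was 0.489 at 6 h, and it passed the threshold as lower at 48 h (ratio 0.320) and at 72 h (ratio 0.339), when 3.05% and 3.54% of all probe sets were lower. With a difference of 222 at 72 h it lay just inside the rule.

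The second Egfr probe set had 180 at 0 h, 172 at 2 h, 180 at 6 h, 148 at 12 h, 133 at 24 h, 92.0 at 48 h and 81.6 at 72 h. It was lowest at 72 h, at 0.454 of the 0 h signal, but its difference was too small for the threshold. Both sets were thus lower at 48 and 72 h, while the dip at 6 h was present in the first and not in the second, whose signals at 6 and 0 h were both 180. The third probe set lay between 0.839 and 16.4, at the floor, and says nothing about the receptor. In bulk RNA, fewer cells that carry the receptor and less of its RNA per cell cannot be told apart.

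A straight line was fitted over hours to log2(signal + 32) and is given here without a test. SE is the standard error of the fitted change, from limma. Over 72 h the line changed by 3.59 for Ereg (SE 0.38), by 2.20 for Areg (SE 0.85) and by 0.90 for the brighter Tgfa set (SE 0.23). It changed by 0.32 for Hbegf (SE 0.26), by -0.28 for Btc (SE 0.28), and by -1.19 (SE 0.30) and -0.96 (SE 0.20) for the 2 brighter sets of Egfr. The wide error of Areg reflects its peak at 6 h, which a line cannot follow. Over the 7 arrays the log2 values of Areg and of Ereg had correlations of -0.89 and -0.85 with those of the brightest Egfr probe set, and of 0.76 with each other. These are descriptions over 7 points that share the same arrays and the same drift of culture time.

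**Figure D2:**
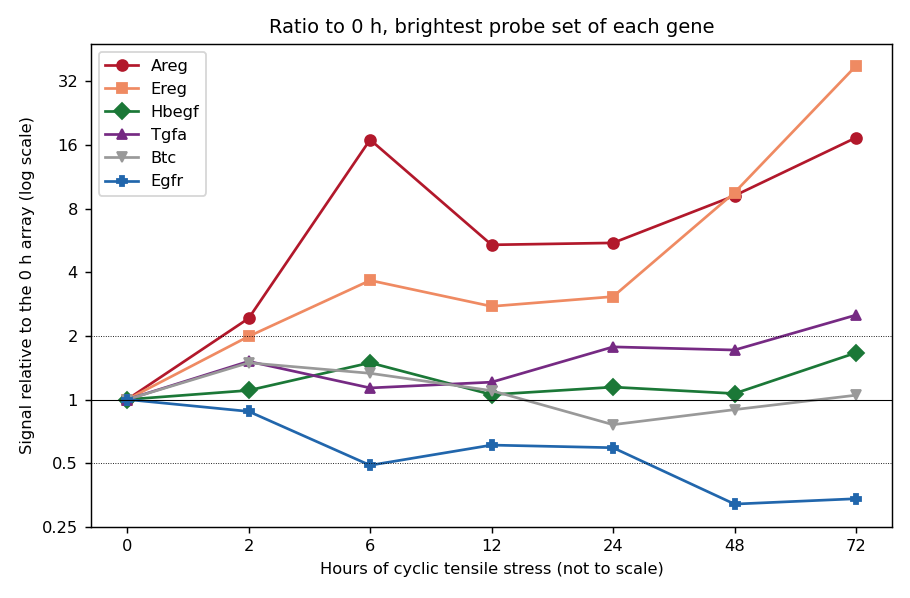
Signal relative to the 0 h array (vertical axis, log scale) against the hours under stress (horizontal axis, evenly spaced) for the brightest probe set of each gene, with dotted lines at ratios of 0.5 and 2. Areg and Ereg cross at 48 h with ratios of 9.20 and 9.53, and Egfr ends at 0.339.

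Areg and Ereg are neighbours on chromosome 14. In RefSeq order the protein-coding genes there run Btc, Areg, Ereg, Epgn, Mthfd2l, Cxcl2, Cxcl1, LOC134481726, Cxcl3, Pf4, Ppbp and Cxcl6, and 10 of these 12 had a singly named probe set. The window was chosen after the values were seen, so it is described without a test. Cxcl2, a neutrophil-attracting chemokine, had signals of 57.5 at 0 h, 55.3 at 2 h, 401 at 6 h, 90.8 at 12 h, 136 at 24 h, 314 at 48 h and 428 at 72 h, with peaks at the same 2 times as Areg. Cxcl3, a related chemokine, had 97.6 at 0 h, 158 at 2 h, 248 at 6 h, 298 at 12 h, 260 at 24 h, 693 at 48 h and 1799 at 72 h, and like Ereg it was highest at 72 h by a wide margin. Cxcl1 was at 3.16 times its 0 h signal at 72 h. The intervening Mthfd2l, a mitochondrial enzyme of folate metabolism, was at 1.12 times, and Pf4, which encodes platelet factor 4, at 1.04 times. Cxcl6 was at 1.68 times and Ppbp at 0.836 times, both with signals below 100 on every array.

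**Figure D3:**
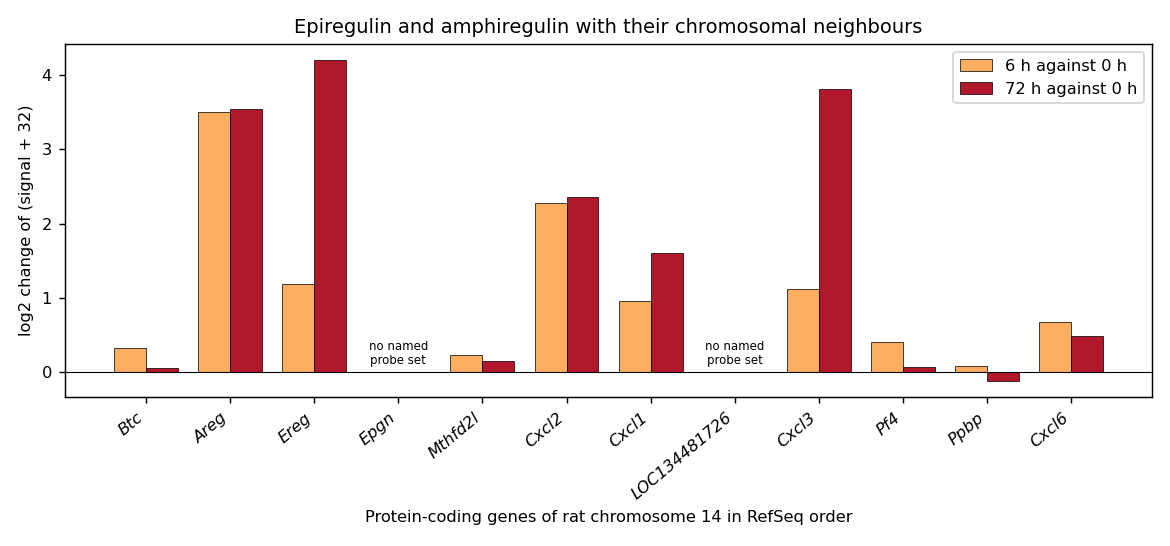
Change of log2(signal + 32) from 0 h (vertical axis) at 6 h and at 72 h for the protein-coding genes around Areg and Ereg on chromosome 14 in RefSeq order (horizontal axis), 1 array per time. High bars stand at Areg, Ereg, Cxcl2, Cxcl1 and Cxcl3, with low bars at Btc, Mthfd2l, Pf4 and Ppbp between and beside them.

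The genes with profiles most like those of the 2 ligands were taken by the Pearson correlation of log2(signal + 32) over the 7 arrays, among 2673 genes whose brightest probe set averaged 100 or more and varied at least 2 times. For Areg they were Maff (r = 0.96), Osgin1 (0.94), Gclc (0.94), Cxcl2 (0.94) and Il1rl1 (0.93). Maff encodes a small MAF transcription factor, Gclc the catalytic subunit that makes the precursor of glutathione, and Il1rl1 the receptor of interleukin 33. Apart from Cxcl2, at 6.98 times, these genes were between 1.76 and 2.90 times their 0 h signal at 6 h. A high correlation did not mean the same peak: Osgin1 had signals of 1229 at 6 h, 1059 at 12 h and 1247 at 48 h, so that it kept most of its 6 h signal where Areg did not. For Ereg they were Car5b (r = 0.99), Enoph1 (0.99), Spry4 (0.99), Cxcl3 (0.99) and Ccl20 (0.98), of which Ccl20 was at 20.4 times, Cxcl3 at 18.4 times and Enoph1 at 2.00 times its 0 h signal at 72 h. With 7 arrays and 2673 genes, correlations of this height are a matter of ranking only. From these same arrays the study had already listed Ereg, Cxcl3 and Ccl20 together in 1 cluster of upregulated genes. It had also listed Gclc among upregulated apoptosis genes.

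The other genes of the pathway were read from 7 lists of 111 genes, of which 93 had a singly named probe set and 81 enough signal for a test. The test was for a linear change over hours (limma on log2(signal + 32), Benjamini-Hochberg adjustment over 17709 probe sets, adjusted p under 0.05), and its spread is that around the line, not between cultures. A peak at 6 h, like that of Areg, can escape such a test. Of the 81 genes 16 rose (19.8%), 8 fell (9.88%) and 57 did not pass, beside 15.0% of all tested probe sets that rose and 14.1% that fell. Without the 72 h array 9 rose and 5 fell, and without the 0 h array 13 rose and 14 fell. The shares of all probe sets with an array left out are not given here. The shifts in these counts, and in those of each list below, therefore cannot be ascribed to the pathway genes. With all 7 arrays the pathway shares lay close to those of the whole array. The latter count every tested probe set, and the former only the brightest singly named one of each gene. The median log2 change of the 93 genes was 0.13 at 6 h and 0.06 at 72 h, beside -0.04 and 0.00 over all tested probe sets.

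Among the other ligands 4 of 6 were measured, and 1 of them had enough signal for the test. Nrg1, which encodes neuregulin 1, a ligand of ErbB3 and ErbB4, had a signal of 221 at 72 h against 113 at 0 h and did not pass (adjusted p = 0.115 from limma). Egf itself had signals of 52.7 at 0 h, 49.8 at 2 h, 38.6 at 6 h, 66.2 at 12 h, 96.9 at 24 h, 136 at 48 h and 157 at 72 h. It was highest at the last 2 times, but its mean was too low for the test. Nrg2 had 85.6 at 72 h against 24.6 at 0 h, and Nrg4 stayed at or below 10.2. Of the co-receptors, Erbb2, which binds no ligand of its own and pairs with the others, had 212 at 72 h against 227 at 0 h, and Erbb3, which has little kinase activity, had 186 against 99.1, and neither passed. Erbb4 lay between 1.27 and 21.3, so the array gave no usable signal for the second receptor of Ereg, Hbegf and Btc.

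Of 11 measured genes of ligand shedding and processing, 3 rose, 2 fell, 5 did not pass and 1 was too low to test. Adam17, the main protease that releases these ligands, was nearly flat, with signals of 3013 at 72 h against 3090 at 0 h and a fitted log2 change of -0.08 (SE 0.14, adjusted p = 0.682 from limma). Rhbdf2, which encodes the inactive rhomboid protein that guides ADAM17 to the cell surface, rose to 1032 at 72 h against 437 at 0 h, with an adjusted p of 0.0033 from limma. Furin, the protease that removes the inhibitory prodomain of ADAM17, rose to 2073 against 1023 (adjusted p = 0.0028). Adam19, another membrane protease of the family, fell to 542 against 1087 (adjusted p = 0.0090). These 3 calls held with each array left out in turn, whereas Timp3, an inhibitor of ADAM17, rose to 5588 against 3166 (adjusted p = 0.0190) but did not pass without the 48 or the 72 h array, with an adjusted p of up to 0.287. Both Furin and Timp3 were among genes that the study had singled out on these arrays, so they are not independent of that choice. For Timp3 the study listed other probe sets, with higher ratios at 72 h than the set used here, which was at 1.77 times its 0 h signal. Without the 48 or the 72 h array 2 of the list rose, and without the 72 h array 1 fell. Without the 0, 12 or 24 h array 3 fell.

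Of 25 measured adaptors and kinases of the cascades, 3 rose, 1 fell, 20 did not pass and 1 was too low. Plcg1, which encodes phospholipase C gamma 1, rose to 2669 at 72 h against 1446 at 0 h (fitted log2 change 0.97, SE 0.15, adjusted p = 0.0016 from limma), and this held with each array left out. Pik3ca, the catalytic subunit of PI3 kinase, rose to 1493 against 911, Gab1, a docking protein, rose to 1757 against 1102, and Map2k2, the kinase directly upstream of ERK, fell to 1094 against 1649. Without the 72 h array these 3 did not pass, with adjusted p of 0.406, 0.323 and 0.108. Pik3ca too had been singled out by the study on these arrays. The study listed another probe set of it, with a higher ratio at 72 h than the 1.64 times of the set used here. Without the 0 h array 3 of the list fell, without the 2 h array 4 rose, and without the 72 h array 2 rose and 0 fell.

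Of 17 measured inhibitors and feedback genes, 2 rose, 1 fell, 12 did not pass and 2 were too low. Spry4, a Sprouty protein that dampens the ERK cascade, rose to 1551 at 72 h against 366 at 0 h, with a fitted log2 change of 1.76 (SE 0.18, adjusted p = 0.0003 from limma). Dusp6, the phosphatase of ERK, moved the other way and fell to 1059 against 2244 (adjusted p = 0.0012). Both calls held with each array left out. Over the list, 2 fell without the 0 h array, and 1 rose without the 0, 2, 24, 48 or 72 h array. Cbl, the ubiquitin ligase that sends the receptor to degradation, rose to 2004 against 1354 (adjusted p = 0.0433), but did not pass without the 0, 2, 24, 48 or 72 h array, with an adjusted p of up to 0.129. Errfi1, a protein that binds and blocks the receptor's kinase, had 3195 against 1924 and did not pass (adjusted p = 0.634), with signals between 2646 and 2897 from 2 to 24 h and 2028 at 48 h. Lrig1, which promotes removal of the receptor, had 933 against 1243 and its lowest signal, 606, at 6 h, and did not pass (adjusted p = 0.918).

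Of 13 measured genes of receptor endocytosis and sorting, 4 rose, none fell, 8 did not pass and 1 was too low. Epn2, an endocytic adaptor, rose to 907 at 72 h against 511 at 0 h, Sh3kbp1, a partner of CBL, rose to 3667 against 2132, the deubiquitinase gene Usp8 rose to 1616 against 1197, and the early endosome GTPase gene Rab5a rose to 2569 against 2021. None of the 4 calls held with every array left out, and without the 48 or the 72 h array 1 of the list rose. Without the 0 h array 2 rose and 1 fell, without the 2 h array 2 rose, and without the 6 or the 24 h array 3 rose. Sh3kbp1 had also been singled out by the study on these arrays.

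Of 20 genes that ERK signalling is known to induce, 4 rose, 4 fell, 9 did not pass and 3 were too low. These counts do not cover a peak at 6 h, which a line cannot follow. The median log2 change of the 20 genes was 0.27 at 6 h, beside -0.04 over all tested probe sets, and 0.02 at 72 h. The change at 6 h was not tested. Fosl1, a subunit of AP-1, rose to 854 at 72 h against 132 at 0 h (adjusted p = 0.0015 from limma, and 0.0563 without the 72 h array), and Ier3, an early response gene, rose to 15856 against 4800 (adjusted p = 0.0067). Ccnd1, which encodes cyclin D1, fell to 2320 against 6667 (adjusted p = 0.0006), and Egr2, a zinc finger factor, fell to 831 against 2327 (adjusted p = 0.0039, and 0.189 without the 72 h array). Without the 72 h array 3 of the list rose and 3 fell, and without the 0 h array 5 fell. Fosl1 was likewise picked by the study on these arrays.

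**Figure D4:**
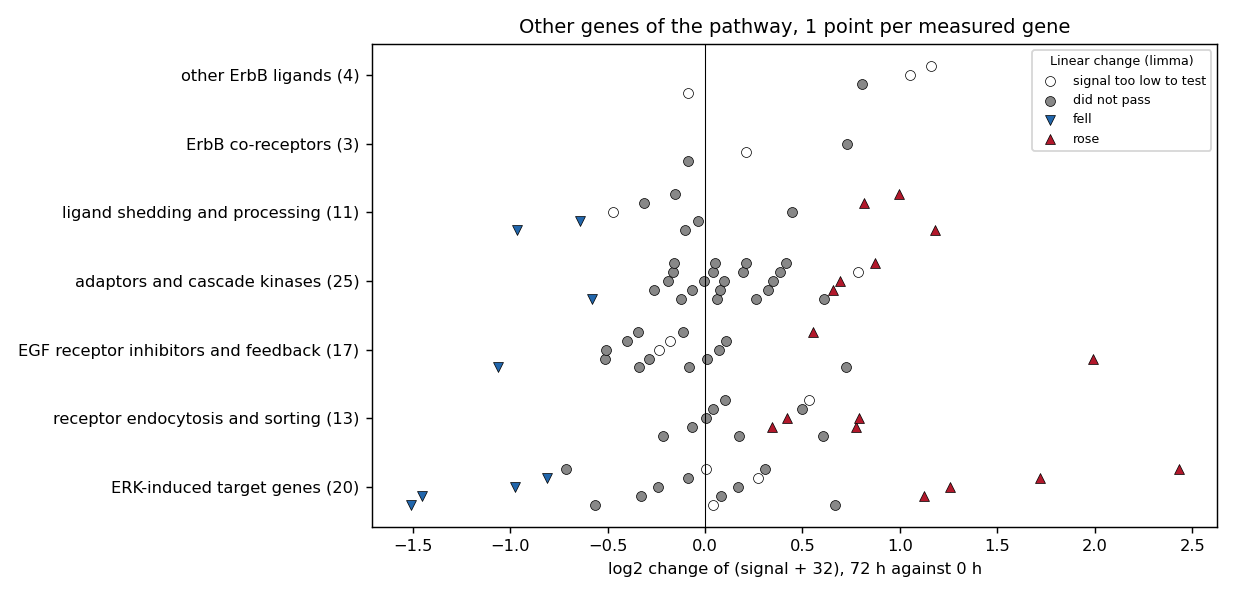
Change of log2(signal + 32) at 72 h against 0 h (horizontal axis) for each measured gene of the 7 pathway lists (vertical axis, number of genes in brackets, points spread vertically for legibility), coloured by the linear test over hours. Points that rose and points that fell lie in most of the longer lists, and no gene of the other ErbB ligands or co-receptors passed.

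Some facts of the arrays and of the cells changed over the same hours, and others changed little. The median signal lay between 145 and 162 on the 7 arrays, and 42.5% to 44.3% of the probe sets had a signal below 100. For beta-actin, the 3′ over 5′ control signal was 1.82 at 0 h, 1.83 at 6 h and 2.62 at 72 h. That of Gapdh changed little, with 1.09, 1.10 and 1.16 at these times. Of all probe sets, 3.54% were lower and 2.60% higher past the threshold at 72 h, which is the measure for the marker counts below. The summed signal of 10 neuronal markers was 18040 at 0 h, 8633 at 6 h and 5067 at 72 h, and 9 of them were lower past the threshold at 72 h. That of 9 microglial and macrophage markers was 43706, 54292 and 24794 at these times, with 4 lower at 72 h, and that of 8 skeletal muscle markers, which spinal cord cells should lack, was 10567, 5607 and 2171, with all 8 lower at 72 h. Of 8 astrocyte markers, with sums of 34286, 21469 and 30719, 1 was lower at 72 h. Of the 6 measured oligodendrocyte lineage markers, with sums of 9533, 7499 and 9294, 1 was lower. The 8 fibroblast and meningeal markers summed to 70233, 64172 and 65974, with 1 higher and 1 lower. RNA of these markers was thus present although the meninges had been removed. Which cells it came from was not tested. Epithelial markers, 8 genes of a tissue rich in EGF-family ligands, summed to between 373 and 493 on every array, and 6 of them stayed below 100 throughout. Those of endothelium, 5 measured genes, summed to between 315 and 458. The part of these cell types, of the loss of cells under strain and of the actin ratio in the signals of Areg, Ereg and Egfr was not tested.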

How the data were processed

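The authors hybridised 7 GeneChip Rat Genome arrays, 1 per time, and deposited a MAS5.0 signal intensity per probe set, with global scaling in GCOS (its version is not given in the sources used here). The trimmed mean of the deposited signals was 500.1 to 500.2 on each array, so no further scaling was applied. From the 31099 probe sets 57 controls were left out. Of the other 31042, 20826 carried 1 symbol in the platform annotation of 2016, 436 several and 9780 none, and symbols were brought up to date by gene identifier, which changed 0 of them. A gene was represented by its singly named probe set of highest mean signal.

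Ratios and differences to 0 h were computed with Python 3.11.15 and pandas 2.3.3. The line over hours was fitted with limma 3.58.1 in R 4.3.3 (lmFit, eBayes with an intensity trend, 5 residual degrees of freedom) on log2(signal + 32). It covered 17709 probe sets averaging 100 or more, with Benjamini-Hochberg adjustment to 0.05. The code was also run on simulated lines with independent noise. That run says nothing about shifts that the probe sets of an array share. The pseudocount understates changes of low signals. The members and the lists were chosen with earlier results of these data known. Genes named in the text are all members, the other ligands and co-receptors, Adam17, Errfi1, Lrig1, up to 4 genes per other list with the highest absolute change at 72 h among those that passed, and the 5 genes most like Areg and like Ereg. The chromosomal neighbours and the genes with the early peak were added after their values were seen. Alternatives were 2 other scalings, a baseline of 0 and 2 h together, other thresholds, pseudocounts, filters and forms of time, other probe sets, and each array left out. The study's removal of unreadable spots was not repeated here. Precision is limited by having 7 arrays and no repeats.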

Additional observations from a re-analysis of the deposited data

How the results depend on the processing

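Of 66 alternative values of the members' log2 change at 6 or 72 h, 61 differed from the value given by less than a factor of 1.5 in fold and 5 by more. Areg, Ereg and Hbegf kept their direction at both times, and Tgfa and Egfr at 72 h. The sign turned under some settings for Tgfa at 6 h, which ranged from -0.27 to 0.27, and for Btc at 72 h, from -0.20 to 0.11. With a pseudocount of 100 the change of Areg was 2.80 at 6 h and 2.83 at 72 h in place of 3.51 and 3.54, and that of Ereg at 72 h was 3.21 in place of 4.21. The lower Egfr signal at 6 h was not seen in its second probe set, which gave 0.01 in place of -0.91, and the third, at the floor, gave -0.43 at 72 h in place of -1.33. Without a minimum difference 2 member probe sets were higher at 6 h (1 with it) and 3 lower at 72 h (1 with it), and with a ratio of 3 the count lower at 72 h was 0. The counts at 6, 48 and 72 h were the same with median scaling, quantile normalization or the mean of 0 and 2 h as baseline. Of the pathway genes 9 to 16 rose and 5 to 14 fell with 1 array left out, and 4 fell with log2(hours + 1) as time in place of 8. The shares of all probe sets under these settings are not given here. No paired analysis was possible because each time has 1 array. With 1 array per time, the noise of members near a signal of 100 was not measured.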
